A study of Mus musculus with 6 samples.

Results

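The enzymes of the Kennedy pathway, which builds phosphatidylcholine and phosphatidylethanolamine from choline and ethanolamine, were followed in neuro2a (N2a) cells after knockdown of the transcription factor NF-Y. The 10 genes were taken by name: the choline branch (Chka, Chkb, Pcyt1a, Pcyt1b and Chpt1), the ethanolamine branch (Etnk1, Pcyt2 and Selenoi), Cept1, which serves both, and Pemt, which links their products. All 10 were measured, by 15 probes, among 16490 genes tested. N2a is a mouse neuroblastoma line. Per the series' design text, the 3 control samples were N2a cells transfected with an empty vector, and the 3 knockdown samples were N2a cells given miR RNAi vectors that target NF-YA together with NF-YC. All were of the same line and were measured as total RNA on 1-colour Agilent arrays on 1 slide. The methods also name a vector with a non-targeting hairpin as a control, and the sample titles say only Vector. Where the control held no hairpin, expression of a hairpin and loss of NF-Y cannot be told apart. No sorting of transfected cells is described. The labels do not say whether the 3 samples of a group were separate cultures, and p-values then measure only the spread between these samples.

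In each branch of the pathway a kinase phosphorylates the free base, a cytidylyl transferase turns the phosphobase into its CDP form, and a phosphotransferase in the membrane of the ER or Golgi joins it to diacylglycerol. The cytidylyl transferase step is the regulated one, and phosphatidylcholine and phosphatidylethanolamine are the most abundant phospholipids of mammalian membranes, including those of neurites. NF-Y is a trimer of NF-YA, NF-YB and NF-YC that binds CCAAT in promoters.

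Of the 10 genes, 3 were called lower in knockdown and 0 higher. A gene was called where limma's Benjamini-Hochberg adjusted p was below 0.05 and the change was over 1.5-fold. Of all genes tested, 5.00% were called lower and 3.91% higher by this rule. The 3 genes stood at different steps: Chkb at the kinase step, Pcyt1b at the cytidylyl transferase step and Selenoi at the last step of the ethanolamine branch. Selenoi fell to 33.0% of its control level, Chkb to 40.4% and Pcyt1b to 56.8%. The choline branch held 2 of these calls among 5 genes and the ethanolamine branch 1 among 3. With no minimum fold, 4 of the 10 were lower and 2 higher, against 15.8% and 15.7% of all genes. The 3 knockdown arrays all lay below the 3 control arrays for 5 genes and all above them for 2, against 27.1% and 27.7% of all genes. The median change of the 10 genes was -0.11 on the log2 scale, and that of all genes was 0.0053. Pcyt1b was dim, and its call was lost with another background correction (normexp, under 2 scalings), though its adjusted p stayed below 0.05. Normexp here added an offset of 50, above the signal of Pcyt1b on every array, which by itself shrinks its fold change. With normexp 2 of the 10 genes were called lower, against 3.33 or 3.56% of all genes. The first row of the slide held all 3 controls and knockdown replicate 1, and the second row the other 2 knockdown arrays. Within the first row Selenoi differed by -1.55, Chkb by -1.29 and Pcyt1b by -0.88. The lone knockdown array there gives no spread of its own, so that this row cannot tell whether the calls hold. At an unadjusted p under 0.05, 4 of the 10 genes were lower and 2 higher in that row, against 13.9% and 15.8% of all genes. In these bulk samples fewer cells expressing a gene and less RNA per cell cannot be told apart.

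**Figure D1:**
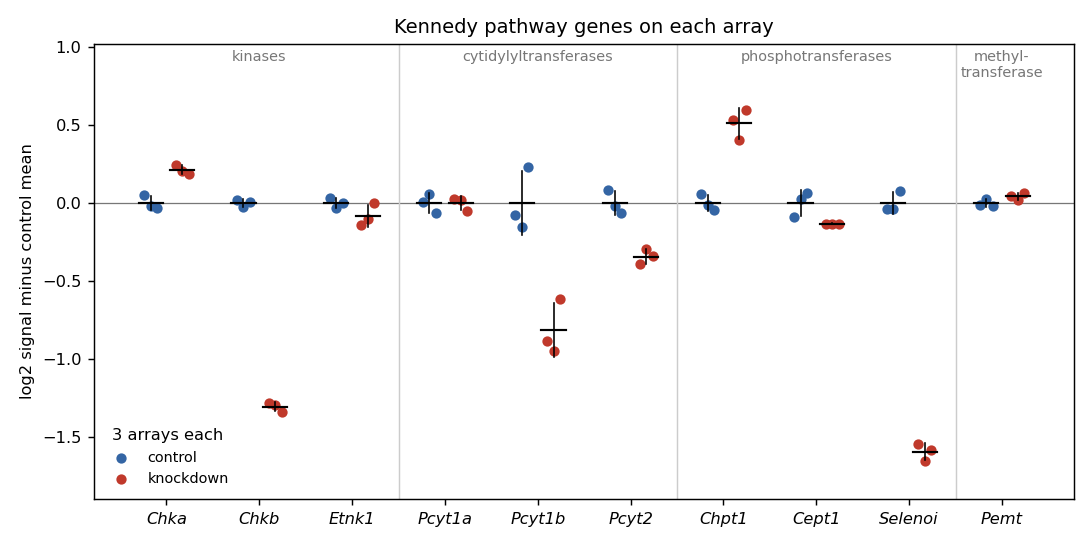
Each point is 1 array, and its height is the log2 signal of a gene's brightest probe minus the mean of the 3 control arrays. Horizontal bars are group means and vertical bars 1 SD. The knockdown arrays of Selenoi, Chkb and Pcyt1b lie well below their controls, those of Chpt1 and Chka lie above, and those of Pcyt1a, Etnk1 and Pemt overlap.

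Levels are given as log2 signals relative to the 75th percentile of the same array, so that 0 is the brightness of that percentile, and they compare arrays for 1 probe and not 1 gene with another. The targeted genes followed the labels. Nfya fell by 0.76 on the log2 scale (SE 0.055, adjusted p = 0.0013) and Nfyc fell by 1.81 (SE 0.045, adjusted p = 0.000323), with no overlap between groups, while Nfyb, which was not targeted, rose by 0.83 (SE 0.060, adjusted p = 0.0013). Between 61.9 and 66.2% of spots per array were well above background, and arrays correlated at 0.989 to 0.994 within groups and 0.987 to 0.990 between groups. Of 9 neuroblastoma and neuronal markers, 8 were well above background on all 6 arrays, among them Hand2 and Gata3, and Nefl was well above it on none. Of 13 markers of astrocytes, microglia, fibroblasts and oligodendrocytes, 9 were well above background on all 6 arrays and the tested probes of Col3a1 and Cx3cr1 on none. Of the neuronal markers none was called, with Isl1 at 0.49 (adjusted p = 0.0051), Gata3 at 0.22 (adjusted p = 0.0133), Gap43 at -0.25 (adjusted p = 0.0147) and Stmn2 at -0.25 (adjusted p = 0.0288). Col1a1 (-0.77) was called lower and Pdgfra (1.29) higher. The summed signal of the neuronal list, in units of the 75th percentile, was 156 to 160.5 in control and 149 to 153 in knockdown. That of the oligodendrocyte list was 0.513 to 0.561 in control and 0.466 to 0.516 in knockdown, that of the astrocyte list 0.183 to 0.207 and 0.151 to 0.168, that of the fibroblast list 0.136 to 0.147 and 0.154 to 0.195, and that of the microglia list 2.21 to 3.17 and 2.06 to 2.53. Such a sum follows its brightest probes and does not describe a list as a whole. Csf1r read 1.41 in control, against -4.69 for Ptprc, -6.49 for Aif1 and -8.22 for Cx3cr1. Of the fibroblast list Pdgfra (1.29) and Col3a1 (0.23) differed upward, and Col1a1 (-0.77) and Dcn (-0.30) downward. The part of these markers in the results was not tested.

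The kinase step is catalysed by choline kinase alpha (Chka), choline kinase beta (Chkb) and the ethanolamine kinase Etnk1. For Chkb (probe A_52_P35304) the control arrays read 1.90, 1.85 and 1.89 and the knockdown arrays 0.59, 0.58 and 0.54. Each knockdown array was thus more than 1 log2 unit under every control array. The group means were 1.88 ± 0.024 and 0.57 ± 0.030 (SD, n = 3 each). Chkb fell by 1.31 (SE 0.041, 95% interval -1.41 to -1.20, adjusted p = 0.000323), which placed it 169th from the lowest change among 16490 genes. The promoter window of Chkb is shown because it carries CCAAT at 2 positions. Windows here are RefSeq promoters of build GRCm38.p6, 250 bases before to 50 after the annotated start, printed 5′ to 3′ on the strand of the gene, with CCAAT, or ATTGG where CCAAT lies on the opposite strand, in capitals. The Chkb window is chr15:89429878-89430177 on the minus strand.
Chkb: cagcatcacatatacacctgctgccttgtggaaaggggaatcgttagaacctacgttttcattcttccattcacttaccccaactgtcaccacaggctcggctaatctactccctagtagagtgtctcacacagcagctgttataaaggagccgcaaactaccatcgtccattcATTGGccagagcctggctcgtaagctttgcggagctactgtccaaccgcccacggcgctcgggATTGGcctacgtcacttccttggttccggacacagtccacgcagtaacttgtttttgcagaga
Both matches were on the opposite strand, at -76 to -72 and at -13 to -9, where the annotated start is base 1.

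Chka differed in the other direction by a small amount. Its brightest probe read 1.4, 1.33 and 1.32 on the control arrays and 1.59, 1.55 and 1.53 on the knockdown arrays. All 3 knockdown arrays were above all 3 controls. The difference was 0.21 (SE 0.045, 95% interval 0.097 to 0.33, adjusted p = 0.0282), or 116% of control, short of 1.5-fold. The adjusted p ranged from 0.0515 to 0.0933 when any 1 array was left out. The other probes of Chka differed by 0.23 (adjusted p = 0.0495) and 0.11 (adjusted p = 0.231), also with no overlap. The window of Chka, chr19:3851523-3851822 on the plus strand, is shown for comparison with that of Chkb, since it too holds CCAAT at 2 positions.
Chka: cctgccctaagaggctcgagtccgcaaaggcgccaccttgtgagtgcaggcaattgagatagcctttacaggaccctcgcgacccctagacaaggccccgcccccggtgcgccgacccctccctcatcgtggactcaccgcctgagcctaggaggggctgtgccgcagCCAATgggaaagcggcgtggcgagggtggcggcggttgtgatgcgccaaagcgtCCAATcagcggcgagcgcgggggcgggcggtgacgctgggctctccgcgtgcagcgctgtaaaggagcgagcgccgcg
Here both lay on the strand of the gene, at -82 to -78 and at -28 to -24. The change of Chkb lay below that of Chka (difference -1.52, SE 0.023), and the difference between the signals of the 2 genes was lower on every knockdown array than on every control array. The SE of a pair difference was taken from the spread of that difference alone. It does not compare with the SE of a single gene, for which limma also drew on the spread of other probes. A two-sided exact permutation test, which can split the 6 arrays in 20 ways, gave p = 0.1, the smallest this design allows. It was also 0.1 after adjustment over the 6 pairs compared, so that no pair difference could pass 0.05.

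Etnk1, which phosphorylates ethanolamine, read -0.70, -0.76 and -0.73 in control and -0.87, -0.83 and -0.73 in knockdown. The third knockdown array lay among the controls and the other 2 below them. The difference of -0.083 (SE 0.054, 95% interval -0.22 to 0.054) did not pass the test (adjusted p = 0.338). The change of Etnk1 lay 1.23 (SE 0.059) above that of Chkb, with the arrays of the groups apart (exact p = 0.1).

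The cytidylyl transferases are Pcyt1a and Pcyt1b, the alpha and beta forms of the enzyme that makes CDP-choline, and Pcyt2, which makes CDP-ethanolamine. Pcyt1a, the widely expressed form, read 2.79, 2.84 and 2.72 in control and 2.81, 2.80 and 2.73 in knockdown. The groups overlapped fully. The difference was -0.0023 (SE 0.053, adjusted p = 0.981), and its 95% interval of -0.14 to 0.13 corresponds to 90.9 to 110% of control.

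Pcyt1b, a form known from neural tissue and gonads, was dim. Its signal was -4.77, -4.85 and -4.46 in control and -5.58, -5.64 and -5.31 in knockdown, and it was well above background on 3 control arrays and 2 of 3 knockdown arrays. All knockdown arrays were below all controls. The fall of 0.82 (SE 0.14, 95% interval -1.17 to -0.46, adjusted p = 0.0146) left 56.8% of control and placed Pcyt1b 608th from the lowest change. With normexp Pcyt1b differed by -0.24 (adjusted p = 0.0091) or -0.19 (adjusted p = 0.0373), under 1.5-fold, and was not called. The normexp offset of 50 exceeded its signal and shrinks its fold change, so that this loss cannot be assigned to the background correction. The call was also lost without knockdown replicate 1 (-0.78, adjusted p = 0.0538) or knockdown replicate 2 (-0.75, adjusted p = 0.0513). With the slide row as a block the difference was -0.88 (adjusted p = 0.0900).

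RefSeq gives Pcyt1b 2 starts on chromosome X. Their windows, chrX:93654613-93654912 and chrX:93674862-93675161, both on the plus strand, are shown because each holds CCAAT at nearly the same distance from its start.
Pcyt1b start 1: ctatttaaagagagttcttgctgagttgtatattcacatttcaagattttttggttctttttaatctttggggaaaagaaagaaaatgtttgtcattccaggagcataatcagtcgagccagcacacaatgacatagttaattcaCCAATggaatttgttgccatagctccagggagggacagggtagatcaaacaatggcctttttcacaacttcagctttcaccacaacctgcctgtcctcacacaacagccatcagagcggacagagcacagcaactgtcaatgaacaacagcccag
Pcyt1b start 2: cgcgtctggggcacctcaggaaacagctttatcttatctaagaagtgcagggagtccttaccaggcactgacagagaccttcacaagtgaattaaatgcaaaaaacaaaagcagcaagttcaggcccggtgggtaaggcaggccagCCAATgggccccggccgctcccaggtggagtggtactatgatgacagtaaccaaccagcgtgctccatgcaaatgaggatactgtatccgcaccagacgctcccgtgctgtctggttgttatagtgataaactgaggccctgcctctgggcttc
The match was at -105 to -101 in the upstream window and at -104 to -100 in the downstream window, on the strand of the gene in both. The arrays do not tell transcripts of these starts apart. The change of Pcyt1b lay below that of Pcyt1a (difference -0.81, SE 0.20, exact p = 0.1), and this difference ranged from -0.98 to -0.27 over 11 alternative settings.

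Pcyt2, the only cytidylyl transferase of the ethanolamine branch, read 5.65, 5.54 and 5.5 in control and 5.17, 5.27 and 5.22 in knockdown. The groups did not overlap. The difference of -0.34 (SE 0.058, 95% interval -0.49 to -0.20, adjusted p = 0.0138) left 78.8% of control and was under 1.5-fold, so that Pcyt2 was not called. Without knockdown replicate 3 its adjusted p was 0.0539. Its change lay below that of Pcyt1a (difference -0.34, SE 0.059, exact p = 0.1).

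**Figure D2:**
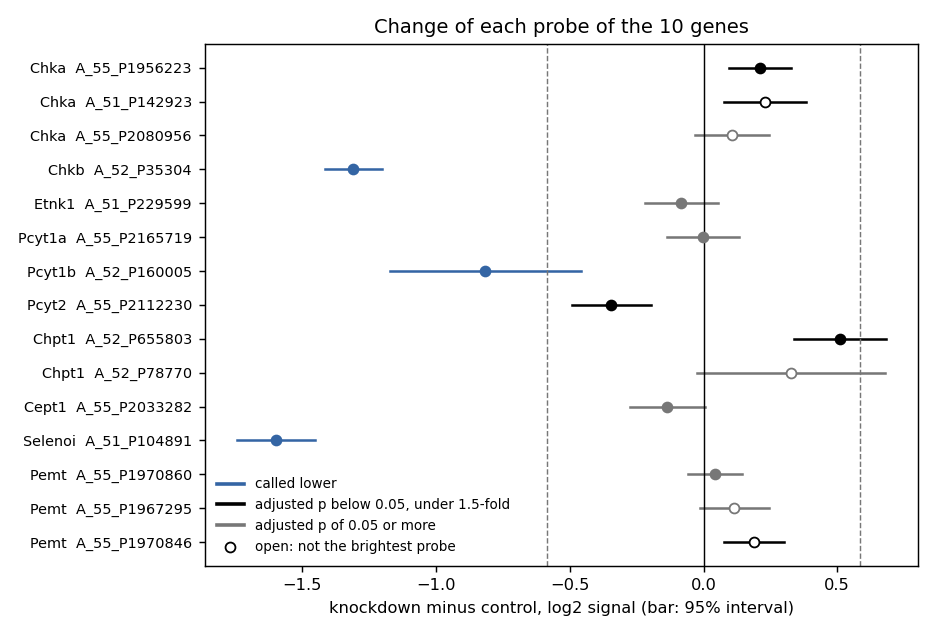
Change of each of the 15 probes, as knockdown minus control on the log2 scale, with its 95% interval. Dashed lines mark 1.5-fold, and open circles are probes that were not the brightest of their gene. Selenoi, Chkb and Pcyt1b are called lower, and the probes of Chka, Chpt1 and Pemt all lie above 0.

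The phosphotransferases are Selenoi, a selenoprotein specific for ethanolamine, Chpt1, which is specific for choline, and Cept1, which uses both. Selenoi showed the lowest change of the 10 genes. Its probe A_51_P104891 is spotted 10 times on each array. Averaged over these spots, of which 9 were used on control replicate 1, it read 1.56, 1.57 and 1.68 in control and 0.054, -0.054 and 0.018 in knockdown. The knockdown arrays were all more than 1.5 log2 units below the controls, against an SD between spots of 1 array of 0.042 to 0.0998. The group means were 1.60 ± 0.068 and 0.0060 ± 0.055 (SD, n = 3 each). The fall of 1.60 (SE 0.058, 95% interval -1.74 to -1.45, adjusted p = 0.000331) was the 72nd lowest among all genes. The Selenoi window is chr5:30232331-30232630 on the plus strand and is shown for its CCAAT.
Selenoi: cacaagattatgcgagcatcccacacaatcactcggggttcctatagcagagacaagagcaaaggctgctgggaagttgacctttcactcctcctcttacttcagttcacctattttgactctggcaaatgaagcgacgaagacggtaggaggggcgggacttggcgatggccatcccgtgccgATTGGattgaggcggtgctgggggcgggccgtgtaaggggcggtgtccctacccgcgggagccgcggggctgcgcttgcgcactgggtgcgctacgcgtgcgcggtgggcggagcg
The match was on the opposite strand, at -66 to -62.

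Chpt1 differed in the opposite direction. The control arrays read -0.56, -0.64 and -0.67 and the knockdown arrays -0.087, -0.22 and -0.025. All knockdown arrays were above all controls, by a difference of 0.51 (SE 0.067, 95% interval 0.34 to 0.68, adjusted p = 0.0066). At 143% of control Chpt1 stayed under 1.5-fold and was not called. With the slide row as a block the adjusted p was 0.0600 for Chpt1, 0.0717 for Pcyt2 and 0.111 for Chka. Its second probe, which was dim, differed by 0.33 (adjusted p = 0.160), and the groups overlapped there.

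Cept1 read 2.97, 3.08 and 3.12 in control and 2.92, 2.92 and 2.92 in knockdown. The knockdown arrays lay just below the lowest control. The difference was -0.14 (SE 0.055, 95% interval -0.28 to 0.0048) and did not pass the test (adjusted p = 0.149). The adjusted p of Cept1 in limma was 0.0453 and 0.0265 with normexp and 0.0398 with an intensity trend, always under 1.5-fold. With any 1 array left out it was 0.0848 or more. The change of Selenoi lay below that of Cept1 (difference -1.46, SE 0.045) and that of Chpt1 above it (difference 0.65, SE 0.096), each with the arrays of the groups apart (exact p = 0.1).

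Pemt, which methylates phosphatidylethanolamine to phosphatidylcholine and is known mainly from liver, read 2.97, 3.01 and 2.96 in control and 3.03, 3.0 and 3.04 in knockdown. The groups overlapped, and the difference of 0.043 (SE 0.040, 95% interval -0.060 to 0.15) did not pass the test (adjusted p = 0.503). The other probes differed by 0.12 (adjusted p = 0.177) and 0.19 (adjusted p = 0.0374), both with all knockdown arrays above the controls and under 1.5-fold.

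**Figure D3:**
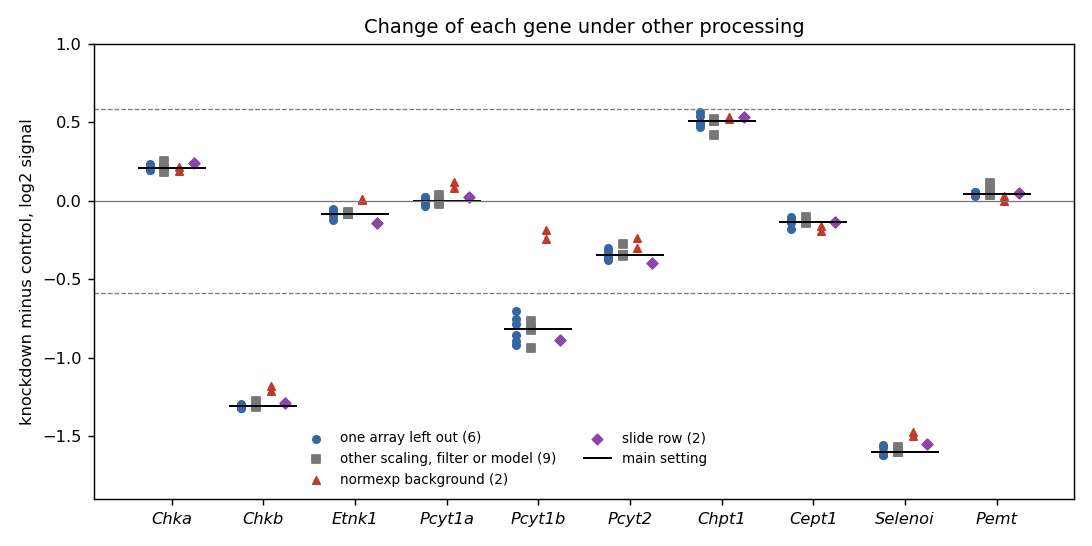
Change of each gene under 19 alternative settings, with the main value as a black line. Dashed lines mark 1.5-fold. Selenoi and Chkb stay below -1.1 under every setting drawn, while Pcyt1b comes within 1.5-fold under both normexp settings. The normexp offset of 50 is larger than the signal of Pcyt1b on every array.

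Promoter windows were found for 9 of the 10 genes, 15 in all, and none was used for Pcyt2. CCAAT on either strand was present for 7 of the 9 genes, against 41.1% of the 27025 genes in the table. A gene was counted where any of its windows held a match, which favours genes with several windows. By window, 8 of the 15 held it, against 37.4% of all 32851 windows. In the bases before the start alone it was present for 6 of 9, against 37.5%. All 3 called genes had a match in the bases before the start. So did Chka (-82 to -78 and -28 to -24), Chpt1 (-225 to -221) and Pemt (-248 to -244, in its upstream window only), none of which was called. The match of Cept1, in 1 of its 3 windows, spanned the start (-2 to 3), and Pcyt1a and Etnk1 had none. Among all tested genes with a window, 6.60% of the 5577 with CCAAT were called lower, and 3.88% of the 7521 without it. The sterol element letters TCACNCCAC were found, of the 9 genes, for Pcyt1a alone (1.44% of all genes), and the E-box CACGTG for none (8.09%). Both strands were searched, and within a window no match overlapped another. Pcyt1a holds TCACNCCAC in 2 overlapping windows, at the same place in the genome. A match describes the letters and not binding.

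**Figure D4:**
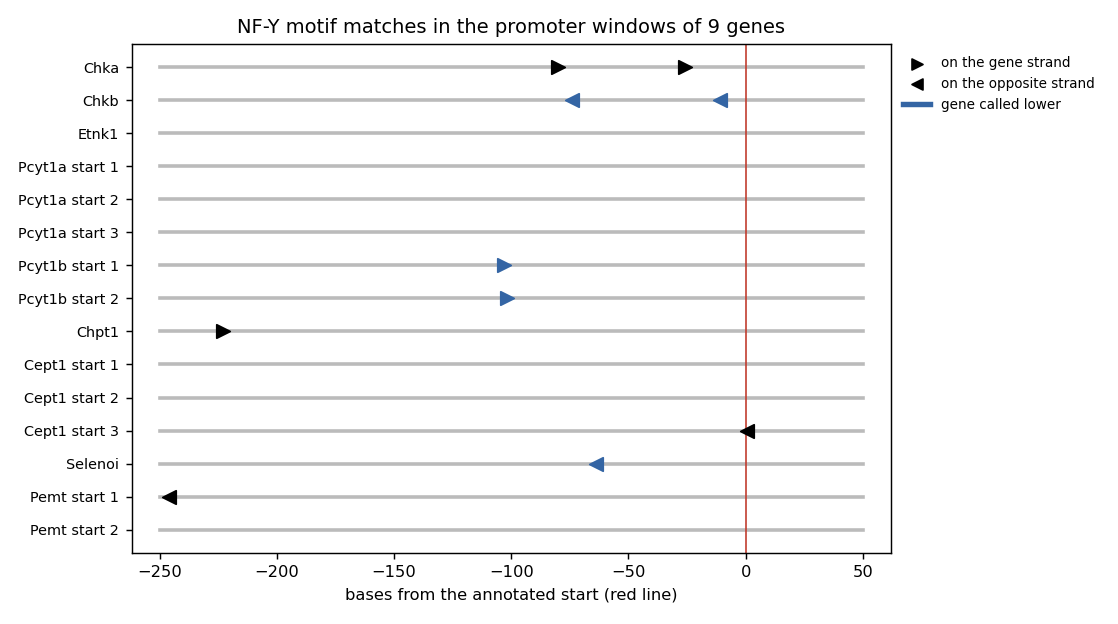
Positions of CCAAT in the 15 promoter windows, in bases from the annotated start (red line). Triangles point right for the strand of the gene and left for the opposite strand, blue marks genes called lower, and starts of a gene are numbered from upstream to downstream. The matches of Selenoi, Chkb and Pcyt1b lie within 105 bases before the start, as do both matches of Chka, which was not called.

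Genes next to the called genes in the genome were examined as well. Chkb lies 487 bases from Cpt1b, which encodes muscle-type carnitine palmitoyltransferase, and the annotation holds a Chkb-Cpt1b read-through transcript. The brightest probe of Cpt1b differed by -0.54 (SE 0.083, adjusted p = 0.0104), under 1.5-fold, and a dimmer probe by -1.53 (adjusted p = 0.0062), though it was well above background on only 1 of 3 knockdown arrays. Cpt1b was called lower with quantile normalization (-0.62) and as the mean of its probes (-1.03), and differed by -0.29 and -0.23 with normexp. The offset used with normexp shrinks the changes of dim probes such as those of Cpt1b. Mapk8ip2, 23984 bases away on the other side, differed by 0.068 (adjusted p = 0.420). On the sides of Selenoi, Adgrf3 (26827 bases away) differed by -0.13 (adjusted p = 0.769). Drc1 (8905 bases away), a gene of motile cilia, rose by 0.81 (SE 0.13, adjusted p = 0.0113). Both were dim, with means of -5.75 in control and -5.88 in knockdown for Adgrf3 and of -5.23 and -4.42 for Drc1. The call of Drc1 was lost with normexp (0.26 and 0.32), where the offset shrinks changes of dim genes, and with the slide row as a block. The neighbours of Pcyt1b, and the annotated genes that overlap Chkb, Selenoi and Pcyt1b, were not tested.

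The pathway was placed among 27 further genes: 8 of choline transport, 4 side enzymes of ethanolamine and phosphocholine, 3 of the phosphatidylserine route, 7 of the formation or breakdown of glycerophosphodiesters, 4 of other uses of choline, and Cpt1b as the read-through partner of Chkb. Of these, 24 were tested, 3 were called lower and 0 higher, against 5.00% and 3.91% of all genes. With no minimum fold 7 were lower and 0 higher, against 15.8% and 15.7%. Their median change was -0.094. Ptdss1, which makes phosphatidylserine from phosphatidylcholine, fell by 0.91 (SE 0.068, adjusted p = 0.0014). Its other probes differed by -0.75, also called, and -0.40, not called. The phosphodiesterase Gdpd1 fell by 0.88 (SE 0.044, adjusted p = 0.000547), and Pnpla7, a lysophospholipase, by 0.62 (SE 0.062, adjusted p = 0.0029). The call of Pnpla7 was lost with normexp (-0.56 under both scalings).

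Under 1.5-fold were Etnk2, a second ethanolamine kinase (-0.57, adjusted p = 0.0024), the aldehyde dehydrogenase Aldh7a1 (-0.33, adjusted p = 0.0081) and Gde1, another glycerophosphodiesterase (-0.16, adjusted p = 0.0499). Aldh7a1 and Gde1 are named after their values were seen. Etnk2 was called lower with the slide row as a block (-0.63), without control replicate 1 (-0.60) and without knockdown replicate 2 (-0.59). Aldh7a1 differed by -0.16 as the mean of its probes (adjusted p = 0.531), its other probe being well above background on no array. Gde1 had an adjusted p of 0.0813 or more with any 1 array left out. The remaining probe of Etnk2 differed by -0.16 (adjusted p = 0.291). Slc44a3 (0.88, SE 0.87, adjusted p = 0.522) and Etnppl (-0.53, SE 0.87, adjusted p = 0.709) were dim and varied widely between arrays. None of the 5 tested transport genes was called. The choline transporter Slc44a1 differed by 0.019 on its brightest probe, while its dimmest probe differed by -0.64 and was called lower; this gene was also named after its values were seen.

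**Figure D5:**
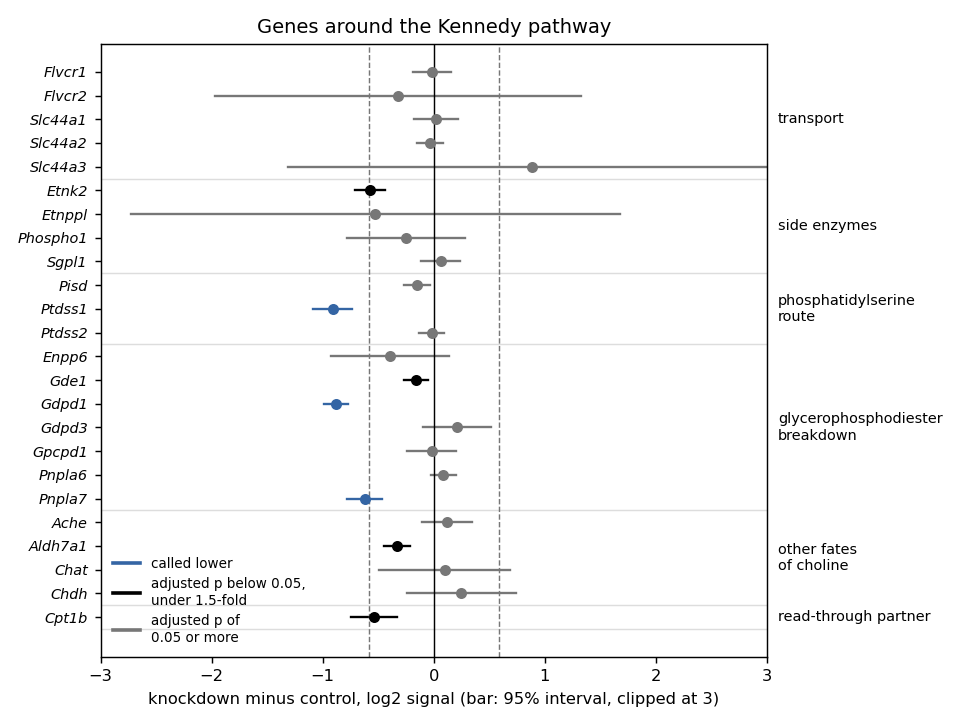
Changes of 24 genes around the pathway, as knockdown minus control on the log2 scale, with 95% intervals, grouped by role. Dashed lines mark 1.5-fold. The glycerophosphodiester group also holds the lysophospholipase Pnpla7. Ptdss1, Gdpd1 and Pnpla7 are called lower and no gene is called higher.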

How the data were processed

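RNA of 3 control and 3 knockdown samples was hybridised, and Agilent Feature Extraction 10.10.1.1 read the arrays. The deposited scanner files hold processed signal intensity, background-corrected by the authors' scanner software, and the deposited series matrix holds the authors' log2 values, whose array differences matched the scanner files within 0.0076 over 43557 probes. Its centring is not given in the sources used here, and the study's methods name GeneSpring and a 20th percentile filter.

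Log2 intensities minus each array's 75th percentile were used. Spots of a probe were averaged without outliers. Of 55681 probes, 42126 reached the array's 20th percentile on all 3 arrays of a group. A gene was its brightest probe, named by transcript from the RefSeq table (GRCm38.p6), and 20548 tested probes had no symbol. The fit was limma 3.58.1 in R 4.3.3 (lmFit, eBayes), two-sided, with Benjamini-Hochberg adjustment over all tested probes, checked on simulated data. The number of arrays limits the precision. Pairs of enzymes were compared by an exact permutation test.

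The members and lists were chosen with earlier results of these data known. Genes named were the 10 members, the NF-Y subunits, pathway genes that were called, at most 4 others with the largest change, and genome neighbours of called members; Aldh7a1, Gde1, Slc44a1 and the markers with values were added after their values were seen. Alternatives were other scaling, normexp (offset 50) on the median signal, since the files hold no mean signal, the series matrix, other filters, the mean of a gene's probes, an intensity trend, array weights, the slide row, the replicate number as a block, and leaving out each array. Those for pathway and genome neighbours were added after seeing the data. Groups came from the sample titles. Some listed marker genes are not reported here and were left out of the marker counts and sums.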

Additional observations from a re-analysis of the deposited data

How the results depend on the processing

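Selenoi stayed between -1.60 and -1.47 and Chkb between -1.31 and -1.18 over the 12 alternatives that kept all rows and arrays, and both were called in all 12. Leaving out each array in turn gave -1.62 to -1.56 and -1.32 to -1.29, also called. Within the first slide row, 3 arrays against 1 with 2 residual degrees of freedom and the lone array assumed to vary like the controls, limma called 0 of the 10 genes, 0 of the pathway neighbours and 0 of all 16490 genes, although 4 members were lower and 2 higher at an unadjusted p under 0.05 (2289 and 2609 of all genes). The changes there were -1.55 for Selenoi, -1.29 for Chkb, -0.83 for Nfya and -1.85 for Nfyc, with adjusted p of 0.0515 or more. With no minimum fold, 4 members were lower and 2 higher, and 7 pathway neighbours were lower and 0 higher, against 15.8% and 15.7% of all genes. Changes near 0 turned in sign: Pcyt1a was 0.036 with quantile normalization, 0.12 and 0.084 with normexp, 0.028 with the slide row and -0.035 to 0.026 over the arrays left out. Etnk1 was 0.0087 and 0.0080 with normexp. Pemt was -0.0024 with normexp under 75th percentile scaling but 0.031 with normexp under quantile normalization. Slc44a1 was -0.19 as a mean of probes, -0.0023 with array weights and -0.020 to 0.091 over the arrays left out. Adgrf3 was 0.044 with normexp under 75th percentile scaling, -0.0017 with normexp under quantile normalization, and 0.32 with the slide row. Leaving out each array gave -0.36 to 0.076 for Adgrf3, -0.026 to 1.63 for Slc44a3 and -1.30 to 0.19 for Etnppl. Of all genes, normexp called 549 or 587 lower and 288 or 272 higher, against 824 and 644. Deviations of same-numbered samples correlated at 0.018, 0.067 and 0.0025, and those of differently numbered samples at -0.081 to 0.063. The labels do not say whether the numbers pair the samples, and so few arrays cannot settle it. With the replicate number as a block, 3 members and 3 pathway neighbours stayed called lower, and 765 genes were lower and 518 higher. Of the members, Pcyt1b alone was not well above background on all 6 arrays. The cause of these changes was not tested.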
